A study of Mus musculus with 12 samples.

Results

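Gene expression was compared in the hypothalamus of mice that drank much alcohol early in a long free-choice experiment and of mice that drank water alone. The comparison takes the 3 arrays titled as early alcohol drinkers and the 3 titled as the water group, which are 6 of the 12 arrays of the study. The members were chosen by these titles and by no measured value. All arrays carried Cy3-labelled RNA of male ICR mice, an outbred strain, that were 3 weeks old when the experiment began. After days 1 to 5, on which both drinking tubes of every cage held water, alcohol mice were offered 1 tube of 5% or 10% alcohol beside 1 tube of water, whereas control mice kept water in both tubes. The sample labels put the killing of the mice on day 51 and the series text lets drinking run to day 57. Alcohol stayed on offer without interruption, so no array represents withdrawal. RNA of 9 water mice made 3 pools of 3 mice, and RNA of 19 alcohol mice made 9 pools of 1 to 3 mice, so each array is a pool and the number of mice behind each early array is not used here. The labels name the groups early, late and low drinkers but give no intake for a single array. A pool of fewer mice evens out less of the difference between animals.

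The hypothalamus holds small groups of neurons that set hunger, water balance, stress and reproductive hormones and daily rhythm, and it receives and contains dopamine neurons. Dopamine is made from tyrosine by tyrosine hydroxylase and aromatic amino acid decarboxylase, is packed into vesicles by a transporter of its own class, and is taken back into the cell by the dopamine transporter. Alcohol is known to act on this system as well as on opioid, GABA and glutamate signalling. In bulk tissue, more cells of a type and more RNA per cell cannot be told apart.

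Signals are given below as scaled log2 signal, which is the log2 of the scanner's processed signal minus the 75th percentile of the same array. A difference of 1 on this scale is a doubling of signal. The 75th percentile itself lay between 1512 and 1853 over the 12 arrays, and 67.0% to 79.3% of the spots were well above background. The number of arrays limits the precision. The 3 water arrays lay on 1 slide together with low drinker array 1. Early arrays 1 and 2 lay on slide 2 with low drinker arrays 2 and 3, and early array 3 lay on slide 3 with the late drinker arrays. No slide held both early and water arrays, so slide and drinking cannot be told apart within these 6 arrays. A fit over all 12 arrays with slide as a term, called the fixed slide block below, links early and water through low drinker array 1 alone. Of 17 transcription factors that mark hypothalamic regions, 14 were well above background on all 12 arrays, among them Nkx2-1, Lhx6 and Foxb1, while Otp was well above background on 0 of them.

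The probe sequences behind the main genes show which part of a transcript each value reads. The first 30 of the 60 bases are printed, in probe orientation, with positions of the array's annotation in mouse build mm9. The array holds 1 probe for Th and 1 for Slc6a3, and pairs of probes for Slc18a2 and Prok2, whose agreement is described below.
Th, chr7:150079917-150079976, minus strand: atcaaacctaccagccggtgtacttcgtgt
Slc6a3, chr13:73715973-73716032, plus strand: tggctgagaagaatcaggtttaccatctcc
Slc18a2 probe 1, chr19:59370102-59370161, plus strand: tttctgcttttgaggcttcagtttcagtaa
Slc18a2 probe 2, chr19:59369846-59369906, plus strand: ggcaaatatttcttttgttttatgaagctt
Prok2 probe 1, chr6:99661495-99661554, minus strand: gacattttaaagaacgccactcgaggaagc
Prok2 probe 2, chr6:99661399-99661458, minus strand: ctttatttgtaacccaaaggtctaatgtaa

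Over the whole array, 32389 probes could be tested. With limma, 205 probes (0.633%) passed a Benjamini-Hochberg adjusted p of 0.05, of which 201 were higher and 4 lower in early drinkers. At an unadjusted p under 0.05, 2893 probes (8.93%) were higher and 671 (2.07%) were lower. Of 30214 probes with a value on all 6 arrays, every early array lay above every water array in 3301 (10.9%) and below in 1663 (5.5%). With 3 arrays a group an exact permutation test cannot give a 2-sided p below 0.1, and every gene whose groups did not overlap had that value. The division into early and water took 31.0% of the variance, the highest of the 10 possible divisions of the 6 arrays (exact permutation test, 1-sided p = 0.1, the smallest possible here). It was not the highest without scaling (26.1%), with another background correction (27.3%) or when water array 1, 2 or 3 was left out. The 1-sided p of the exact permutation test was then 0.2.

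The excess of higher probes was found among dim ones. When the tested probes were ordered by mean signal into 5 equal parts, the median difference was 0.21 in the dimmest part, 0.07 in the next and between -0.01 and 0.01 in the other three. Of the 205 probes at adjusted p under 0.05, 152 lay in the dimmest part and 52 in the next. Quantile normalization, which gives all arrays the same distribution of signal, left 1680 higher and 1591 lower probes at unadjusted p under 0.05 and no probe at adjusted p under 0.05. Every one of the 205 probes kept its direction and an unadjusted p under 0.05 with quantile normalization. Centring on the median gave 2210 higher and 1271 lower at unadjusted p under 0.05.

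**Figure D1:**
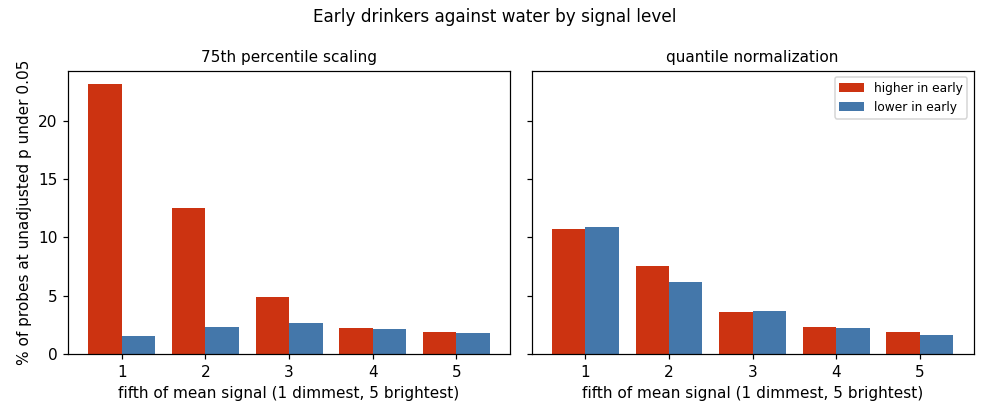
Share of tested probes at unadjusted p under 0.05 (vertical axis, %) in 5 equal parts of the probes ordered by mean signal (horizontal axis), higher in early drinkers in red and lower in blue, with 75th percentile scaling on the left and quantile normalization on the right. In the dimmest part 23.1% of probes were higher and 1.54% lower with the first scaling, against 10.7% and 10.9% with the second.

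Only low drinker array 1, of all alcohol arrays, shared a slide with water. Over probes at unadjusted p under 0.05 between early and water, low drinker array 1 lay nearer to the early mean in 17.2%, low drinker array 2 in 84.3% and low drinker array 3 in 79.3%. The late drinker arrays, all on slide 3, were nearer to the early mean in 52.3%, 63.3% and 54.8%. For the 201 probes that rose at adjusted p under 0.05, low drinker array 1 was nearer to the early mean in 15, low drinker array 2 in 201 and low drinker array 3 in 198. Most probes that separated early drinkers from water were thus nearer to the water mean in the alcohol array hybridised beside water, and the part of slide in these differences was not tested.

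**Figure D2:**
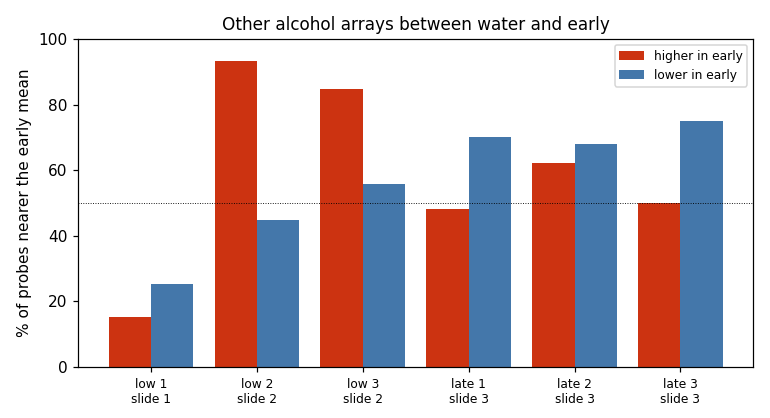
Share of probes at unadjusted p under 0.05 in early against water (vertical axis, %) for which each low and late drinker array lay nearer to the early mean than to the water mean, for probes higher in early (red) and lower in early (blue). The dotted line marks 50%, and low drinker array 1 reached 15.2% and 25.4%.

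Of 13 genes of dopamine synthesis, transport, breakdown and reception, 5 were higher and 1 was lower at unadjusted p under 0.05, and 0 passed the adjusted threshold. Over the brightest probe of each of 14728 genes, 7.12% were higher and 1.7% lower by the same rule. The median difference of the 13 genes was 0.24, beside 0.01 over all genes, and with quantile normalization it was 0.22.

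Th encodes tyrosine hydroxylase, the rate-limiting enzyme of dopamine synthesis. Its scaled log2 signal was 0.20, 0.73 and 0.63 in the water pools and 1.02, 1.57 and 1.08 in the early pools. All early pools lay above all water pools, with a difference of 0.70 ± 0.20 (SE, adjusted p = 0.272, limma). Slc6a3 encodes the dopamine transporter, which returns dopamine to the neuron. Its signal was 0.70, 1.80 and 1.97 in water and 2.21, 3.40 and 2.66 in early drinkers. The groups did not overlap, and the pool labelled water 1 was the lowest by far. The difference was 1.27 ± 0.43 (adjusted p = 0.370, limma), a 2.40-fold higher signal. Without water array 1 it was 0.87 and without early array 2 it was 0.94, both above an unadjusted p of 0.05. Slc18a2, the vesicular monoamine transporter, was at 0.39, 0.55 and 0.57 in water and 0.81, 1.10 and 0.85 in early drinkers. Both of its probes differed in the same direction, by 0.42 ± 0.10 (adjusted p = 0.197) for the brighter and by 0.36 for the other. Ddc, the decarboxylase that completes dopamine synthesis, differed by 0.31 ± 0.13 (adjusted p = 0.467), with water at 2.40, 2.79 and 2.78 and early pools at 2.93, 3.10 and 2.86.

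Among the receptors, Drd2, which also acts as the autoreceptor of dopamine neurons, was at -0.65, -0.56 and -0.64 in water and -0.41, -0.26 and -0.44 in early drinkers. The groups did not overlap and the difference was 0.24 ± 0.07 (adjusted p = 0.289), with 0.32 on its second probe. Drd5 was the 1 member that was lower, by -0.27 ± 0.07 (adjusted p = 0.199). Drd3 was a dim probe, at -5.38, -5.65 and -5.89 in water and -4.57, -4.52 and -4.73 in early drinkers, and differed by 1.03 ± 0.14 (adjusted p = 0.0505). Low drinker array 1 stood at -5.96 for Drd3, below every water pool, and under the fixed slide block over 12 arrays the difference turned to -1.38. Of the enzymes that break dopamine down, Maoa and Maob differed by 0.01 and -0.08, and the receptor Drd1 differed by -0.01.

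Low drinker array 1, on the slide of water, was nearer to the early mean for Th, Slc6a3 and Slc18a2. These were 3 of the 4 higher dopamine genes other than Drd3, and for Drd2 that array was nearer to the water mean. That array was at 1.07 for Th, 2.92 for Slc6a3 and 1.12 for Slc18a2, within or above the range of the early pools. The other low drinker arrays were at 0.99 and 1.05 for Th and at 2.79 and 2.76 for Slc6a3. Late drinker arrays were spread widely, at -0.82, 3.09 and 2.21 for Slc6a3 and at 0.35, 1.26 and 0.86 for Th. Late drinker array 1 was thus below every water pool for Slc6a3. In a fit of all 12 arrays, whose spread includes the late arrays, Slc6a3 no longer had an unadjusted p under 0.05. With slide as a fixed block over the 12 arrays, where the link between early and water runs through low drinker array 1, the differences of Th, Slc6a3 and Slc18a2 were 0.82, 1.46 and 0.65 and none had an unadjusted p under 0.05. Low and late drinkers are set here against the same 3 water arrays.

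**Figure D3:**
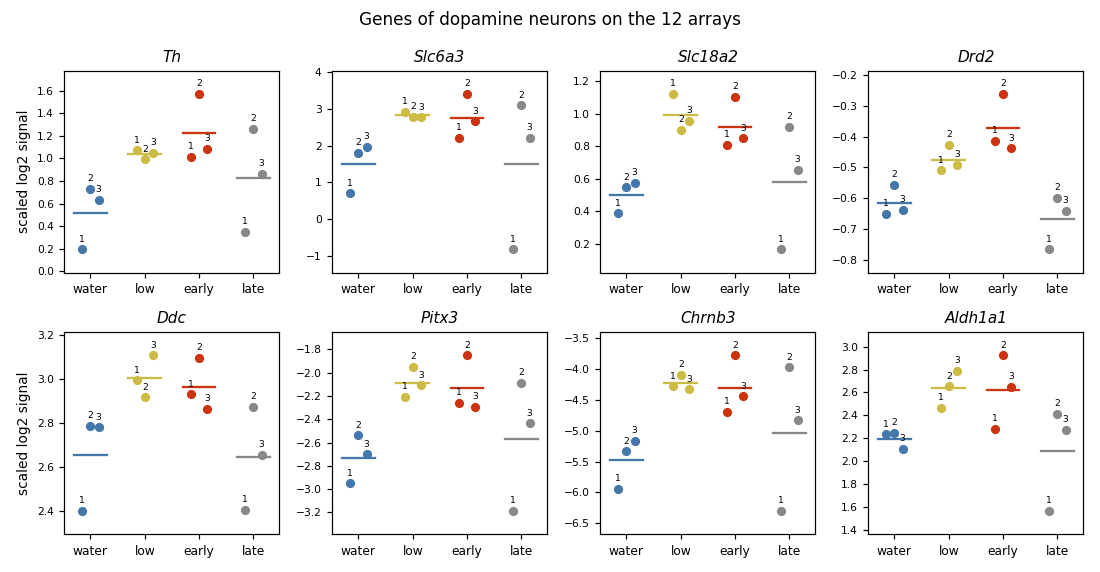
Scaled log2 signal (vertical axis, a separate range for each gene) of 8 genes of dopamine neurons on each of the 12 arrays, with the array's number in its group beside each point and lines for group means. Early pools lay above water for Th, Slc6a3, Slc18a2, Drd2, Ddc, Pitx3, Chrnb3 and Aldh1a1, low drinker array 1 stood with the early pools for most of them, and late drinker array 1 was low.

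A list of 20 genes known from midbrain dopamine neurons was drawn up after the values of Th and Slc6a3 had been seen, and it gets no test of its own. It holds Th, Slc6a3, Slc18a2 and Ddc again. Of the other 16 genes, 6 were higher at unadjusted p under 0.05, 0 were lower and 10 did not pass, with a median difference of 0.44, beside 7.12% higher and 1.7% lower over the brightest probes of all genes. Under the fixed slide block Foxa1 turned to -0.50, Aldh1a1 was at 0.15 and Pitx3 at 0.50, none with an unadjusted p under 0.05. Pitx3, a transcription factor of midbrain dopamine neurons, was at -2.95, -2.54 and -2.70 in water and -2.26, -1.85 and -2.29 in early drinkers. Chrnb3, a nicotinic receptor subunit of the same neurons, differed by 1.17 and Aldh1a7, an aldehyde dehydrogenase, by 1.02. Aldh1a1, which marks ventral dopamine neurons, was at 2.24, 2.25 and 2.11 in water and 2.28, 2.92 and 2.65 in early drinkers, and without early array 2 its difference was 0.27, no longer called. Nr4a2 differed by 0.20, En2 by 0.22, Ntsr1 by -0.00 and Sox6 by -0.08, with overlap or without passing the test. The summed signal of all 20 genes, the repeated ones included, was 4.45 to 4.74 in the water pools and 4.90 to 5.40 in the early pools, and low drinker array 1 was at 5.11. Of the 6 genes, which had been picked for a high signal in early drinkers, 5 were nearer to the early mean in low drinker array 1, and Foxa1, at -4.36 there, was not. Whether the share of midbrain tissue in the dissected pieces had a part in the dopamine gene differences was not tested.

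The promoters of 3 of these genes are printed because the genes moved together. They come from RefSeq (GRCm38.p6) and run from 250 bases before to 50 bases after the start of the gene, on the strand of the gene. Capitals mark a cAMP response element (TGACGTCA), and the NGFI-B response element (AAAGGTCA), bound by the Nr4a family, was searched as well, both on both strands.
Th, chr7:142899946-142900245, minus strand: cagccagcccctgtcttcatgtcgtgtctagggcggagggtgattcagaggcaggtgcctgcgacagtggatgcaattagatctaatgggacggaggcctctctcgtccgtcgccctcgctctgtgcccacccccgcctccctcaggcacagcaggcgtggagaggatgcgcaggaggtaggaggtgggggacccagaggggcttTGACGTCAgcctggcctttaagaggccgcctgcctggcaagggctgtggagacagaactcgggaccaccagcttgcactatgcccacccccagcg
Slc6a3, chr13:73536497-73536796, plus strand: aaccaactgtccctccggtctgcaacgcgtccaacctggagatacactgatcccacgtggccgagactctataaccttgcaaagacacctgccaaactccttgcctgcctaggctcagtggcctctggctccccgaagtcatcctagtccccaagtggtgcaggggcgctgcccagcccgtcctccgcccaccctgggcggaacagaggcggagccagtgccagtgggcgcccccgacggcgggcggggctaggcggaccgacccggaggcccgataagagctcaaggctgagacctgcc
Slc18a2, chr19:59260628-59260927, plus strand: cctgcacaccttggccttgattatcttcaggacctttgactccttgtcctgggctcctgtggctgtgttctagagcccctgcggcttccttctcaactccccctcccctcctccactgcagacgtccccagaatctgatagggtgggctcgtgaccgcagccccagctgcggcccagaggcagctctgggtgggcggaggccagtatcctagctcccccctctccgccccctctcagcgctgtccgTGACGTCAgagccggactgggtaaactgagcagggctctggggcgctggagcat
The cAMP response element was found in the window of Th and in that of Slc18a2 and in neither that of Slc6a3 nor those of Ddc, Drd2 and Pitx3. It is present in 1.79% of the 32851 windows of RefSeq. The NGFI-B response element was found in 1 of 2 windows of Ddc and is present in 1.51% of all windows. A match describes the letters of a window and shows no binding.

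The study followed 13 genes around the dilated cardiomyopathy pathway, a set of adrenergic, calcium channel and muscle structure genes, which its authors chose with these samples in hand. Jup was among them as a control from outside the adrenergic and calcium channel branch. Their count is therefore not independent evidence. In early drinkers 4 of the 13 were higher, 0 were lower and 9 did not pass at unadjusted p under 0.05, beside 7.12% higher and 1.7% lower over all genes. The median difference was 0.06. Des, which encodes the intermediate filament desmin, was at -5.40, -5.25 and -5.39 in water and -4.62, -4.64 and -4.55 in early drinkers. It rose by 0.75 ± 0.07 (adjusted p = 0.0227). Jup, the junction protein plakoglobin, was at -4.04, -3.90 and -4.06 in water and -3.39, -3.37 and -3.50 in early drinkers. It rose by 0.58 ± 0.07 (adjusted p = 0.0413). Sgcd, a sarcoglycan of the muscle membrane, differed by 0.84 ± 0.16 (adjusted p = 0.103), and Igf1, a growth factor, by 0.39 ± 0.10 (adjusted p = 0.228).

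All 4 were dim or moderately dim, and low drinker array 1 was nearer to the water mean for each of them, though for Des it lay above all 3 water pools. It was at -5.09 for Des, -3.96 for Jup, -5.46 for Sgcd and -2.52 for Igf1. Low drinker array 2 was at -3.08 for Des and -2.90 for Jup, above every early pool. With slide as a fixed block over the 12 arrays the direction turned, to -0.75 for Des, -0.32 for Jup and -0.62 for Sgcd, while Igf1 kept its direction at 0.15 without its call. None of the genes of the signalling part of the pathway passed at unadjusted p under 0.05. Adrb1, a beta-adrenergic receptor, differed by -0.02, Gnas, the stimulatory G protein, by -0.03, Adcy1 by -0.02, Adcy3 by 0.06, Cacna1d by -0.01 and Cacnb4 by 0.11. The value of Gnas is that of its brightest probe, named by the array file alone, and its 7 tested probes ran from -0.58 to 0.27 with none at unadjusted p under 0.05. Prkx, a protein kinase, differed by -0.13 with all early pools below all water pools, Itga4 by -0.43 and Tnni3 by 0.20.

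**Figure D4:**
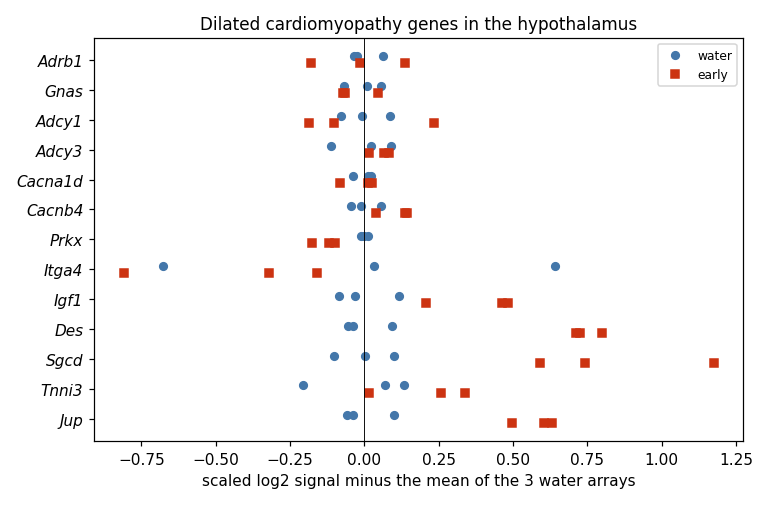
Difference of each array from the mean of the 3 water arrays (horizontal axis, scaled log2 signal) for the 13 dilated cardiomyopathy genes, water pools as blue circles and early pools as red squares. Des, Jup, Sgcd and Igf1 lay above water on all 3 early arrays, whereas Adrb1, Gnas, Adcy1 and Cacna1d overlapped with water.

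The counts of the lists that follow stand beside 7.12% of genes higher and 1.7% lower over the brightest probes of all genes. Peptides that control feeding did not pass the test. Of 10 tested arcuate appetite peptides 0 were called, with a median difference of 0.06. Npy, which drives feeding, was at 1.01, 1.05 and 1.33 in water and 1.54, 1.51 and 1.19 in early drinkers, a difference of 0.29 ± 0.13 (adjusted p = 0.523). Agrp, made by the same neurons, differed by 0.26 and Pomc, the precursor of the opposing melanocortin signal, by -0.17. Among 13 hunger and satiety receptors 1 was lower, Npy5r by -0.20 (-0.13 and no longer called without water array 3), while Lepr differed by 0.21, Ghsr by 0.08 and Mc3r by -0.21. Of the orexin and melanin-concentrating hormone genes, Mchr1 was higher by 0.35 (turning to -0.17 under the fixed slide block), and Hcrt, Hcrtr1 and Hcrtr2 differed by 0.13, 0.04 and -0.04.

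Among the neuroendocrine lists, vasopressin and oxytocin genes had 0 of 6, with Avp at 0.05, Oxt at 0.18 and Avpr1a at -0.00 difference. In the stress axis 1 of 13 was lower, Hsd11b1 by -0.20, an enzyme that regenerates glucocorticoid, and Crhr1 and Crhr2 differed by 0.05 and 0.03. The gonadotropin axis had 0 of 10, with Gnrh1 at 0.15, Kiss1 at -0.05 and Kiss1r at 0.15. Among releasing hormones of growth and thyroid 1 of 11 was lower, the somatostatin receptor Sstr1 by -0.31, and Ghrh and Sst differed by -0.01 and -0.02.

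Of the opioid genes Oprm1, the mu receptor, was higher by 0.58 on its brightest probe, which only the array file assigns to the gene. The probe that RefSeq assigns to Oprm1 differed by -0.08. Low drinker array 1 was at -5.02 on the brightest probe, below every water pool, and the fixed slide block turned the difference to -1.29. Penk, Pdyn and Pnoc differed by -0.04, -0.11 and 0.02. Among 10 serotonin receptors Htr1b was higher by 0.64 and Htr7 by 0.18, whereas Htr1a differed by -0.02. Over 12 alternatives of processing Htr1b ran from 0.30 to 0.64, and 11 kept its call. Htr4 also counted as higher, but its probe was well above background on 0 water arrays and 1 early array, so no size is given. Htr7 lost its call with quantile normalization (0.15) and turned to -0.42 under the fixed slide block. Among nicotinic receptors Chrnb3 and Chrna3 were higher, by 1.17 and 0.43, and Chrna2 and Chrna4 differed by -0.17 and 0.17. Chrna3, well above background on 1 water and 2 early arrays, lost its call with quantile normalization (0.13) and turned to -1.25 under the fixed slide block. The GABA-A receptor and GABA synthesis genes had 0 calls of 18, with Gad1 at -0.04, Gad2 at -0.04 and Slc32a1 at -0.10. The ionotropic glutamate receptors had 0 of 14, with Grin1 at 0.01, Grin2a at -0.16 and Grin2b at -0.14. Among metabotropic glutamate receptors Grm7 was higher by 0.20 and all 3 of its probes pointed the same way, but it lost its call with quantile normalization (0.16) and turned to -0.06 under the fixed slide block, while Grm2 and Grm3 differed by 1.07 and -0.02. Cnr2, a cannabinoid receptor of immune cells, was higher by 0.61 on 1 of its probes, lost that call with quantile normalization (0.30) and turned to -2.67 under the fixed slide block. Cnr1 and Faah differed by 0.19 and 0.07.

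Genes that handle alcohol itself pointed both ways. Adh1, an alcohol dehydrogenase, was lower by -0.42 ± 0.16 (adjusted p = 0.411) on its brightest probe and differed by -0.02 on the next. Aldh1a1 and Aldh7a1, aldehyde dehydrogenases, were higher by 0.42 and 0.35, and Adh5 differed by 0.09. Aldh7a1 turned to -1.06 under the fixed slide block. Aldh1a1 also counts among the dopamine neuron genes above.

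Among lists of signalling downstream of receptors, adrenergic receptors had 0 of 8, with Adra1a at -0.10, Adra1b at 0.11 and Adra1d at -0.03, adenylyl cyclases and Gs had 0 of 10, with Gnal at 0.16, and protein kinase A and CREB genes had 0 of 11, with Prkaca at -0.01, Prkacb at 0.03 and Prkar1a at 0.06. Voltage-gated calcium channels had 0 of 14, with Cacna1a at -0.16 and Cacna1b at 0.01. Immediate early genes had 0 of 16, with Fos at -0.08, Fosb at 0.45 and Fosl2 at -0.18. Of 21 potassium channels 3 were higher, among them Kcnc1 by 0.27 and Kcnq3 by 0.61, and Kcna1 and Kcna2 differed by 0.05 and 0.10. Kcnc1 was higher on 1 of its 3 probes, and under the fixed slide block Kcnc1 and Kcnq3 turned to -0.0042 and -0.63. Among 18 genes of synaptic vesicles Sv2a was higher by 0.25, with 0.22 on its second probe, and Cplx1 by 0.23, while Syn1, Syn2 and Syp differed by -0.06, -0.08 and 0.06.

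Of 7 tested genes of suprachiasmatic signalling, the output of the circadian pacemaker, 1 was lower and 0 were higher, with a median difference of 0.05. The lower one, Prok2, a peptide secreted by the suprachiasmatic nucleus, was at -1.21, -1.26 and -1.52 in water and -1.61, -1.62 and -1.92 in early drinkers. Both probes were lower, by -0.38 ± 0.13 (adjusted p = 0.348) and -0.64, and low drinker array 1 stood at -1.61 with the early pools. Without early array 3, water array 1 or water array 2 the brighter probe lost its unadjusted p under 0.05, at -0.28, -0.32 and -0.35. Its receptor Prokr2 differed by 0.08 and Vip by 0.11. The core clock genes had 0 calls of 18, with Clock at -0.05, Arntl at 0.04 and Npas2 at 0.12.

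Of the growth factor genes, Igfbp4, a binding protein of insulin-like growth factors, was at -4.35, -4.28 and -4.23 in water and -3.60, -3.78 and -3.75 in early drinkers. It rose by 0.58 ± 0.07 (adjusted p = 0.0432) and by 0.69 on its other probe, with low drinker array 1 at -4.39 and a difference of -0.62 under the fixed slide block. Igf2 and Igf1r differed by 0.37 and 0.11. Among neurotrophins and their receptors Ntf3 was higher by 0.54 and Ret, a receptor of glial-derived factors, counted as higher on a probe well above background on 0 water arrays, so no size is given, while Bdnf differed by -0.00. Ntf3 lost its call with quantile normalization (0.31) and turned to -0.46 under the fixed slide block.

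Immune, stress and housekeeping lists followed. Of 17 toll-like receptor and cytokine genes Myd88 was lower by -0.22, and Tlr2, Tlr3 and Tlr4 differed by -0.03, 0.08 and 0.24. Of 17 chromatin genes Hdac11 was higher by 0.22, and Dnmt1, Dnmt3a and Dnmt3b differed by 0.04, 0.20 and -0.03. Heat shock genes had 0 of 15, with Hspa1a at -0.05, Hspa1b at 0.01 and Hspa5 at -0.06. In the endoplasmic reticulum stress list Ddit3 was lower by -0.16, and Hsp90b1 and Calr differed by 0.05 and -0.02. Ndufa4 and Atp5b of the respiratory chain were higher by 0.23 and 0.28, but the second probe of Atp5b differed by -0.19, and Ndufa1 and Ndufa9 differed by 0.05 and 0.01. Rpl23 was higher by 0.20 (0.14 and no longer called with quantile normalization) and Rps6 lower by -0.27, while Rpl3, Rpl4 and Rpl5 differed by -0.09, -0.04 and 0.01. Of 7 tested Hox genes Hoxb3 and Hoxb4, dim probes of genes that pattern the hindbrain, were higher by 0.73 and 1.57, each well above background on 1 water and 2 early arrays, and turned to -1.09 and -0.97 under the fixed slide block. The reference genes Actb and Gapdh differed by 0.03 and 0.12.

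Markers of other tissues and cell types were examined beside these genes. Of 9 tested choroid plexus genes 0 were higher and 2, Aqp1 and Sostdc1, were lower, with a median difference of -0.35, and Sostdc1 turned to 0.17 under the fixed slide block and was at -0.21, no longer called, without water array 1. With quantile normalization, under which 1591 of all 32389 tested probes were lower, 4 of these choroid plexus genes were lower. Their summed signal was 1.62 to 2.02 in water and 1.52 to 1.76 in early drinkers. Of 9 tested pituitary genes 0 were higher and Prl and Tshb were lower, with a median of -0.40, and the summed signal was 4.04 to 4.62 in water and 3.58 to 3.98 in early drinkers, where the ranges did not overlap. The summed signal did not overlap either for astrocytes, at 7.66 to 7.77 in water and 7.78 to 7.87 in early drinkers. The same held for oligodendrocytes, at 7.87 to 8.00 and 8.04 to 8.12, and for serotonin neurons, at -2.37 to -2.27 and -1.98 to -1.34. It overlapped for choroid plexus, tanycytes, endothelium, microglia, meninges, thalamus, cortex, striatum, blood and the hypothalamic transcription factors. For single probes, every early array lay above every water array in 10.9% and below in 5.5%. Prl, the pituitary hormone prolactin, was at -2.91, -8.21 and -0.71 in water and -6.21, -6.87 and -5.59 in early drinkers, and was well above background on 2 water arrays and 1 early array. The fit dropped water array 2, which was below every early pool, and gave a difference of -4.41 (adjusted p = 0.101, limma), whereas without that filter it was -2.28 with no unadjusted p under 0.05. With slide as a block that was fixed over the 12 arrays it turned to 0.62. Of 7 tested blood genes S100a8 was lower, by -0.59, and with quantile normalization 3 were lower, beside the same 1591 of 32389 probes. Microglia, meninges and thalamus had 0 calls, with medians of -0.06, 0.37 and -0.08. Of 12 astrocyte genes 1 was higher, of 17 oligodendrocyte genes 2, of 14 endothelial genes 1, of 10 tested cortex genes 1 and of 9 tested tanycyte genes 1, with 0 lower and medians of 0.02, 0.04, 0.09, -0.05 and 0.03. Of these, Aldoc of astrocytes, Cldn11 of oligodendrocytes, Pecam1 of endothelium, Emx2 of cortex and Rax of tanycytes were higher by 0.20, 0.16, 0.26, 0.50 and 0.67. Aldoc, Cldn11 and Pecam1 lost their calls with quantile normalization, at 0.11, 0.14 and 0.14, and Pecam1, Emx2 and Rax turned to -0.26, -0.96 and -0.49 under the fixed slide block. Serotonin neuron genes, listed after the dopamine genes had been seen, had 1 call of 6, Fev by 1.03, while Tph2 and Slc6a4 were not well above background in water. Over 12 alternatives of processing the difference of Fev ran from 0.028 to 1.03, and 11 kept its call. The part of these tissues in the differences was not tested.

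The largest differences among annotated probes well above background on all 6 arrays were chosen by size, with an unadjusted p under 0.05 and groups that did not overlap. The largest positive ones were Hand2, a transcription factor of autonomic neurons and heart, by 1.74 ± 0.16 (adjusted p = 0.0227), Tex101 by 1.51, Olfr433 by 1.49, Orm3 by 1.32, Cxcr2 by 1.31, Gm5134 by 1.28, Slc6a3, Hoxc10 by 1.26, Ffar2 by 1.21, Myo15 by 1.16, H1f6 by 1.14 and Plg by 1.08. Hand2 was at -4.88, -4.95 and -4.86 in water and -3.44, -3.21 and -2.82 in early drinkers, with -4.50 on low drinker array 1 and -1.85 on low drinker array 2. Of these 12 only Slc6a3 stood nearer to the early mean in low drinker array 1, while all 12 did so in low drinker arrays 2 and 3. The other 11 turned to the lower side under the fixed slide block over 12 arrays. Slc6a3 was also the single one of the 12 with a signal above the 75th percentile of its array.

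The largest negative differences were Tshb, thyroid-stimulating hormone of the pituitary, by -1.23, Rab27a, a vesicle transport GTPase, by -1.18, Rbbp4, a histone-binding chromatin subunit, by -0.96, Dmac2 by -0.90, Pkd2, a calcium-permeable channel, by -0.89, Ube2s by -0.84, Wfdc2 by -0.81, Zfp951 by -0.79, Fmo5 by -0.71, Olfr1153 by -0.68, Gng7 by -0.68 and Tmem143 by -0.67. None of them reached an adjusted p of 0.05. Several are dimmer probes of genes whose brighter probes did not pass, at -0.06 for Dmac2, -0.09 for Pkd2, -0.03 and -0.07 for Zfp951 and 0.09 for Gng7. The brighter probes of Fmo5 and Ube2s were lower as well, by -0.35 and -0.81, and the dimmest probe of Fmo5 by -1.20. Tshb lost its unadjusted call with quantile normalization (-1.33), and Olfr1153 turned to 0.17 under the fixed slide block. Without early array 2 the difference was -0.65 for Tshb and -0.46 for Wfdc2, and without early array 1 it was -0.77 for Rab27a and -0.40 for Tmem143. Rbbp4 was at 0.13, -0.32 and 0.25 in water and -1.24, -0.86 and -0.72 in early drinkers, and low drinker array 1 was at 0.29. Its 4 probes disagreed, with -0.96 and -0.72 on a pair of them, -0.05 on another on the same strand and 0.26 on 1 on the opposite strand. Ube2s was at 2.93, 2.23 and 2.60 in water and 1.48, 1.94 and 1.83 in early drinkers.

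**Figure D5:**
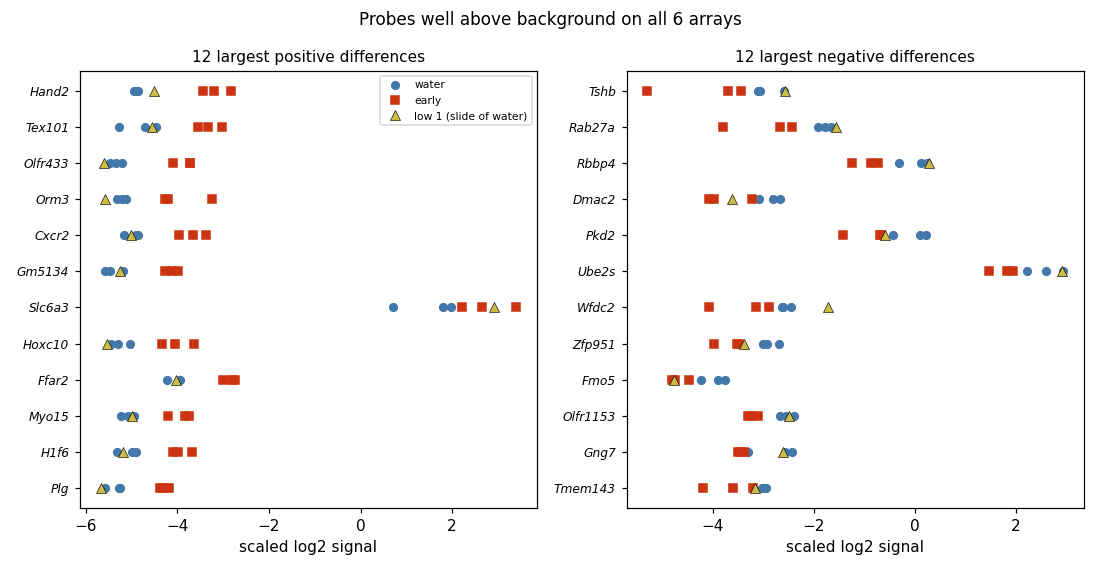
Scaled log2 signal (horizontal axis) on the 3 water arrays (blue circles), the 3 early arrays (red squares) and low drinker array 1 (yellow triangle) for the 12 largest positive (left) and 12 largest negative (right) differences. Among the positive ones low drinker array 1 sat with water for all but Slc6a3.

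The 4 probes that fell at adjusted p under 0.05 were Cyp2j5, a cytochrome P450, by -1.47, Klrc2, a natural killer cell receptor, by -0.56, Aldoart2, an aldolase of sperm, by -0.56, and NAP102386-1, an unannotated probe, by -1.90 from 2 arrays of each group. For that probe the fit dropped water array 1 (-8.01), which was below every early array, and early array 1 (-7.40). Without the filter the difference was -1.06 with no unadjusted p under 0.05. Under the fixed slide block Cyp2j5 was at -3.81, Klrc2 at -0.53, Aldoart2 at -0.14 and NAP102386-1 at -1.85. Klrc2 and Aldoart2 had no unadjusted p under 0.05 there. Of the 15 with the largest fitted rise, 14 were well above background on 0 water arrays, so their sizes and order are not given. In alphabetical order they were 4930513O06Rik, 4932431P20Rik, A4gnt, AF454394, Anxa13, Cyp2j11, Evx1, Fam170b, Gen1, Heatr9, Hemgn, Myo3a, Olfr154 and Pbsn, and the remaining one was Hand2. For Gen1 and Olfr154 the fit dropped early array 3, at -7.68 and -8.13, which was below every water array. Of the 205 probes, 82 were well above background on 0 water arrays. Of the 24764 probes with 1 RefSeq gene, 19 were well above background on all early and 0 water arrays, and 0 showed the reverse. The dim group then gives only a bound, from the lowest signal called well above background on each array. Pla2g2a was at least 3.18-fold, Cyp2j11 at least 2.70-fold, Fmr1nb at least 2.40-fold, Speer2 at least 2.32-fold and a second probe of Plg at least 2.29-fold brighter in early drinkers. Under the fixed slide block the fitted direction of Pla2g2a, Cyp2j11, Fmr1nb and Speer2 turned, at -0.64, -0.82, -1.35 and -1.56, and low drinker array 1 was nearer to the water mean for all 4.

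Early drinkers were also set against the other drinkers. Against low drinkers 2 of 32354 probes (0.00618%) passed the adjusted threshold, both lower in early drinkers, and 1964 had an unadjusted p under 0.05, of which 405 were higher and 1559 lower in early drinkers. That split was 1178 to 1079 with quantile normalization, 1178 to 1104 with median centring and 513 to 1033 without scaling. Without low drinker array 2 it was 801 to 612, so its direction depends on the scaling and on that array. Against late drinkers 0 passed with limma, and 4026 (12.2%) had an unadjusted p under 0.05, of which 2653 were higher and 1373 lower in early drinkers. That split was 1999 to 1725 with quantile normalization, 1539 to 1737 with median centring and 915 to 4334 without scaling, so its direction depends on the scaling. Early array 3 shared its slide with all late arrays and early arrays 1 and 2 with low arrays 2 and 3.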

How the data were processed

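RNA of hypothalamus pools was labelled with Cy3 by the authors and hybridised to Agilent Whole Mouse Genome arrays of 1 colour. Per the file headers the deposited intensities came from Agilent Feature Extraction 10.5.1.1, which subtracts background and writes a processed intensity, its error and flags for each spot. The table of the whole series holds the authors' processed intensities of the same arrays and was used only as an alternative. The 43379 non-control spots were read, outlier spots and spots with a signal under 2 times its error were left out, log2 was taken, the 75th percentile of each array was subtracted, and spots of 1 probe were averaged, giving 41174 probes. A probe needed a value on 2 of 3 arrays of each group. Early and water were compared with limma 3.58.1 (R 4.3.3) on the 6 arrays with Benjamini-Hochberg adjustment over all tested probes, without a block. Early against low and against late were contrasts of a fit of all 12 arrays. RefSeq named 24764 probes with 1 gene through accessions, and 499 with several were not named. In the lists a gene stands for its brightest probe over the 12 arrays, and among the largest differences for the probe with the largest difference of those that met the rule.

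Named genes were up to 15 probes each way at adjusted p under 0.05, the 12 largest differences each way among annotated probes well above background on all 6 arrays with unadjusted p under 0.05 and no overlap, the first 3 genes of each list and every list gene at unadjusted p under 0.05, all cardiomyopathy genes, the 5 largest bounds each way, and up to 8 probes each way at adjusted p under 0.05 against low and against late drinkers. A few genes that this rule names are not reported here, though they stay in the counts of their lists. Members and lists were chosen with earlier results of these data known. Replicates are pools, so p-values measure the spread between pools. Slides were read from the barcode of each array, and 76 probes of the authors' table had no match in the scanner output. In simulated data with 200 of 32389 probes moved by 1 (log2), 70.5% were recovered at adjusted p under 0.05 with 6 unmoved probes called. The simulated noise was independent, with no difference between slides and no shift of dim probes. It therefore cannot show how many calls in the real arrays are false. Alternatives were other scalings, backgrounds, filters, tests, slide and replicate blocks and leaving out arrays, and the lists of midbrain and serotonin neurons and the brighter 50% of probes were added after seeing the data.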

Additional observations from a re-analysis of the deposited data

Results flagged for a closer look

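The effects of early and low drinking, each against the same water arrays, differed for 2 probes at adjusted p = 0.0112 by a limma contrast over the 12 arrays. Neither has a RefSeq symbol. One probe had no gene symbol in the array file either, and its early minus low difference was -2.21. Its difference from water was -0.17 in early drinkers and 2.04 in low drinkers, and the fit dropped early array 1 (-6.33) and low drinker array 3 (-6.45), whose spots failed the filter on signal and outliers. It was well above background on 1 of the 3 early arrays. The other carries the name Gpr37, an orphan receptor of oligodendrocytes, in the array file, and its fitted early minus low difference was -2.16. It was well above background on 0 early arrays and 5 of the 12 arrays in all, so the fitted value is no measured size. The fit dropped water array 2 (-8.07), low drinker array 1 (-7.22) and early array 1 (-6.46) by the same filter, so its low value rests on 2 arrays, at -4.40 and -4.23.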

How the results depend on the processing

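The count of probes between early and water at unadjusted p under 0.05 was 3564. It moved by over 1.5 times in a fit of 4 groups over 12 arrays (1557) and with unequal variances (2375). The same held with slide over 12 arrays as a random block (820) or a fixed block (2299, of which 403 higher and 1896 lower). The brighter 50% of probes alone held 705, of which 373 were higher and 332 lower. In the brightest of 5 equal parts by signal 1.88% of probes were higher and 1.76% lower. In the next part these shares were 2.22% and 2.13%, beside 8.93% and 2.07% over all tested probes. At adjusted p under 0.05 the count of 205 became 0 with quantile normalization, with normexp, with 4 groups, with slide as a random or a fixed block over 12 arrays, with unequal variances and in the brighter 50%, and it was 70 with only probes well above background, 121 without a filter, 322 with slide as a random block over 6 arrays (311 higher, 11 lower) and 1 with the methods' t-test. It was 179 with median centring, 268 without scaling and 213 with the authors' table. With the replicate number as a block it was 0, with 3159 probes at unadjusted p under 0.05. Numbers did not pair the samples, as the deviations of same-numbered arrays correlated at -0.08, 0.01 and -0.06. Leaving out arrays gave 2472 to 4486 probes at unadjusted p under 0.05 and 0 to 236 at adjusted p. The adjusted count was 0 without early array 1 or 2 or any water array and 236 without early array 3. With 1 array left out the variance share ran from 33.1% to 42.1%, and early against water was not the highest division without water array 1, 2 or 3. Calls on the gene lists (54, of which 40 higher and 14 lower) became 98 with every probe of a member (76 higher, 22 lower), split into 29 higher and 24 lower with quantile normalization and 28 and 24 with median centring, and ran from 40 to 74 without single arrays. Low drinker array 1 lay nearer to the early mean in 21.5% with quantile normalization, 19.4% without scaling, 12.1% with normexp and 15.2% without a filter. Early against low (1964 and 2 adjusted) gave 1284 with the filter on probes well above background and 4344 with the fixed slide block. Its adjusted count was 0 with quantile normalization, with either filter change and with the replicate block, 4 with median centring, 1 with normexp and 44 with the fixed slide block. Without single arrays it gave 1317 to 4732 probes and 0 to 119 adjusted, with 119 without low drinker array 1. Early against late (4026 and 0 adjusted) gave 1855 and 26 adjusted with the fixed slide block, 5 adjusted with quantile normalization and 1 with median centring or without scaling. Without single arrays it gave 2378 to 4835 and 0 to 194, with 194 without early array 3 and 103 without late drinker array 3.

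Over 97 genes and their alternatives, 1363 of 1732 values kept direction and side of unadjusted p 0.05, 296 lost it, 12 gained it and 61 turned direction. Leaving out 1 array ended 12 of these genes' calls (early array 3) to 21 (water array 1). Most turns came with slide as a fixed block over 12 arrays, where Htr7 was at -0.42, Rax at -0.49, Oprm1 at -1.29, Maoa at -0.031, Cxcr2 at -1.39, Prl at 0.62, Ffar2 at -1.26, Olfr433 at -1.59, Plg at -1.60, Drd4 at -0.26, Orm3 at -1.27, H1f6 at -1.62, Myo15 at -1.28, Des at -0.75, Hoxc10 at -1.64, Mchr1 at -0.17, Sgcd at -0.62, Sostdc1 at 0.17, Pecam1 at -0.26, Foxa1 at -0.50, Hoxb3 at -1.09, Drd3 at -1.38, Adcy3 at -0.0029, Gnas at 0.066, Cacnb4 at -0.15, Kcnq3 at -0.63, Gm5134 at -1.21, Igfbp4 at -0.62, Cnr2 at -2.67, Olfr1153 at 0.17, Drd1 at 0.083, Jup at -0.32, Hand2 at -0.60, Emx2 at -0.96, Tex101 at -0.90, Aldh7a1 at -1.06, Ntf3 at -0.46, Grm7 at -0.062, Tnni3 at -0.23, Hoxb4 at -0.97, Chrna3 at -1.25, Htr4 at -1.57, Kcnc1 at -0.0042 and Ppp1r1b at -0.59. The cause was not tested. Near 0, Maoa turned to -0.040 with median centring and to -0.021 without scaling. With normexp Cacna1d was at 0.042 and Drd1 at 0.051, and with slide as a random block over 6 arrays Drd1 was at 0.0021. Without single arrays Maoa ran from -0.017 to 0.047, Adcy1 from -0.14 to 0.067, Cacna1d from -0.034 to 0.020, Adrb1 from -0.097 to 0.062 and Drd1 from -0.25 to 0.21.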
